A study of Mus musculus with 4 samples.

Results

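The genes described here are 10 regulators and matrix genes of the sclerotome, tendon and cartilage: *Sox9*, *Sox5*, *Sox6*, *Nkx3-2*, *Scx*, *Runx2*, *Acan*, *Uncx*, *Meox2* and *Matn4*. They were chosen by name as known genes of these tissues, and every non-control probe that the array annotation assigns to any of them was used. They are 10 of the 37074 gene names and 23 of the 56604 probes on the array. On at least 1 array 15 of these probes and 9 of the genes were marked by the scanner software as well above background, and *Runx2* was on none.

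The study asked how loss of the kinase gene *Dyrk2* alters gene expression in the early mouse embryo. RNA of whole C57BL/6 embryos was labelled with Cy3 and hybridized to 4 one-colour Agilent mouse arrays on 1 slide. The groups were WT at E8.5, *Dyrk2* knockout at E8.5, WT at E10.5 and *Dyrk2* knockout at E10.5, where E is the embryonic day. Each group has 1 array, no allele or treatment is given for WT, and no treatment is given for any group. The mutant mice carry small deletions made with a CRISPR/Cas9 nickase, and neither the labels nor the methods say which deletion or how many embryos went into each RNA. With 1 array per group no difference between genotypes at a stage had a replicate check, and the small number of arrays sets the precision of every value below.

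The sclerotome is the ventral part of each somite, from which vertebrae and ribs form under hedgehog signals from the notochord and floor plate. Its cells are guided by homeobox factors such as Uncx, Meox2 and Nkx3-2, and those that become cartilage are driven by Sox9 together with Sox5 and Sox6, which switch on matrix genes such as *Acan*. Tendon progenitors arise at the border with the muscle-forming part of the somite and are marked by *Scx*, while Runx2 directs cells to bone.

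Each value below is the log2 of a probe's processed intensity minus the 75th percentile of its array, so that 0 is the intensity that 3 in 4 probes do not exceed. Values in the 4 arrays are given in the order WT E8.5, labelled knockout E8.5, WT E10.5 and labelled knockout E10.5. The error of a log2 ratio is that of the scanner software's own error model and does not cover differences between embryos. A gene counted as higher or lower when its brightest probe differed 1.5-fold or more. A fold against an array on which the probe was not well above background is a lower bound and is written as at least that fold. Levels of different probes are not compared, because probes differ in how well they bind.

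The targeted gene was examined as a check of the labels. The brightest *Dyrk2* probe had values of 0.06, 0.76, −0.31 and 0.34. It was 1.62-fold higher at E8.5 and 1.57-fold higher at E10.5 on the array labelled knockout. These log2 ratios fell short of 1.5-fold at E8.5 under a scaling by spike-in control probes (0.15) and without scaling (0.44), and at E10.5 without scaling (0.52). The other *Dyrk2* probe had values of −0.23, −0.20, −0.28 and −0.00, and was 1.02-fold and 1.21-fold higher there, although its log2 ratio at E8.5 became −0.23 without scaling and −0.52 under the spike-in scaling. The *Dyrk2* transcript was therefore not lower at its brightest probe on the arrays labelled knockout. A probe outside a small deleted stretch checks nothing about the allele, so the arrays are named by their labels, and which genotype is higher is known only as far as the labels are right. The paper reports *Foxa2*, *Scx* and Brachyury (*T*), picked from these arrays and also measured by relative expression, as decreased in mutant embryos. On the arrays labelled knockout *Foxa2* was lower at E8.5 (log2 ratio −1.06), and *Scx* and *T* at E10.5 (−0.62 and −1.49). *Scx* at E8.5 was level (0.06). The labels were not tested with these genes.

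At E8.5 the labelled knockout array had more signal than WT for *Meox2* and less at the brightest probes of *Sox9* and *Sox5*. The *Meox2* difference fell short of 1.5-fold under the spike-in scaling. At E10.5 the labelled knockout array had less signal for *Scx* and *Acan*. Both differences fell short of 1.5-fold under a normexp background correction, and *Acan* was not well above background on that array. Between the stages most of these genes had more signal at E10.5 in both genotypes. Fewer cells of a type and less RNA per cell cannot be told apart in RNA of whole embryos.

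*Meox2* encodes a homeobox factor of the somite that acts in the formation of sclerotome and limb muscle. Its only probe (chromosome 12 of mm9, 37905809 to 37905868, plus strand) had values of −1.18, −0.15, 1.25 and 1.16. The WT E8.5 array was thus the lowest, the labelled knockout E8.5 array lay above it, and the E10.5 arrays lay highest and close together. At E8.5 *Meox2* was 2.04-fold higher on the labelled knockout array (log2 ratio 1.03, error 0.21). This ratio stayed positive under the spike-in scaling (0.48) and without scaling (0.77), but under the spike-in scaling it no longer reached 1.5-fold. At E10.5 it was 1.06-fold lower, a difference smaller than its error of 0.20 that became positive under the spike-in scaling (log2 ratio 0.07). From E8.5 to E10.5 *Meox2* was 5.4-fold higher in WT and 2.48-fold higher on the labelled knockout arrays. Whether the genotype ratio differed between the stages was not tested, since each stage has 1 array per genotype.

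*Uncx* encodes a homeobox factor of the posterior sclerotome, which is needed for the pedicles of the vertebrae and the proximal ribs. The brightest of its 2 probes (chromosome 5, 140023669 to 140023728, plus strand) had values of −3.26, −2.68, −1.25 and −1.53. The other *Uncx* probe (chromosome 5, 140020426 to 140020485, plus strand) had values of −3.91, −3.22, −2.56 and −3.02. At both probes WT was the lowest array at E8.5 and the highest at E10.5. At E8.5 *Uncx* was 1.49-fold higher at the brightest and 1.61-fold higher at the other probe on the labelled knockout array (log2 ratios 0.58 and 0.69, errors 0.25 and 0.29). Under the spike-in scaling these log2 ratios were 0.03 and 0.14, and without scaling 0.32 and 0.43. At E10.5 *Uncx* was 1.21-fold lower at the brightest and 1.37-fold lower at the other probe, and both stayed lower under the spike-in scaling (log2 ratios −0.11 and −0.29). Between the stages the brightest *Uncx* probe was 4.02-fold higher in WT and 2.22-fold on the labelled knockout arrays. The other probe was 2.56-fold higher in WT and 1.15-fold on the labelled knockout arrays, with log2 ratios of 0.50, short of 1.5-fold, and −0.03 under a normexp background correction. Under normexp the brightest probe kept log2 ratios of 1.07 and 0.59, past 1.5-fold.

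*Nkx3-2*, also called Bapx1, encodes a homeobox factor that maintains chondrogenesis in the sclerotome. Its only probe (chromosome 5, 42152989 to 42153048, minus strand) had values of −5.88, −4.39, −3.99 and −4.02. It was not well above background on either E8.5 array, so no genotype ratio was computed there. At E10.5 *Nkx3-2* was 1.02-fold lower on the labelled knockout array (error 0.33 on the log2 scale), with a log2 ratio of 0.14 under the spike-in scaling and 0.06 under normexp. The E10.5 arrays were thus alike for *Nkx3-2* within the error. Compared with E8.5, *Nkx3-2* at E10.5 was at least 1.78-fold higher in WT and at least 1.29-fold higher on the labelled knockout arrays, but under normexp the log2 ratios were 0.23 and −0.06, both short of 1.5-fold. On the labelled knockout arrays the log2 ratio passed 1.5-fold under the spike-in scaling (1.01) and without scaling (0.68).

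*Scx*, which encodes scleraxis, a basic helix-loop-helix factor of tendon progenitors, had values of −1.27, −1.20, 0.84 and 0.22 at its only probe (chromosome 15, 76289708 to 76289767, plus strand). Both E8.5 arrays were low and nearly level, and at E10.5 the labelled knockout array lay between them and WT. At E8.5 *Scx* was 1.05-fold higher on the labelled knockout array, within the error of 0.21, and its log2 ratio was −0.48 under the spike-in scaling and −0.19 without scaling. At E10.5 it was lower on the labelled knockout array under every scaling, with a log2 ratio of −0.62 and an error of 0.20. It was short of 1.5-fold under the spike-in scaling (−0.46) and normexp (−0.54), and past it without scaling (−0.75). The E10.5 signal of *Scx* was 4.31-fold that of E8.5 in WT and 2.68-fold on the labelled knockout arrays. *Scx* is among the genes that the study picked from these same arrays as lowered, and *Sox9* among those marked on its heat map of them, so their direction here is not independent evidence.

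**Figure D1:**
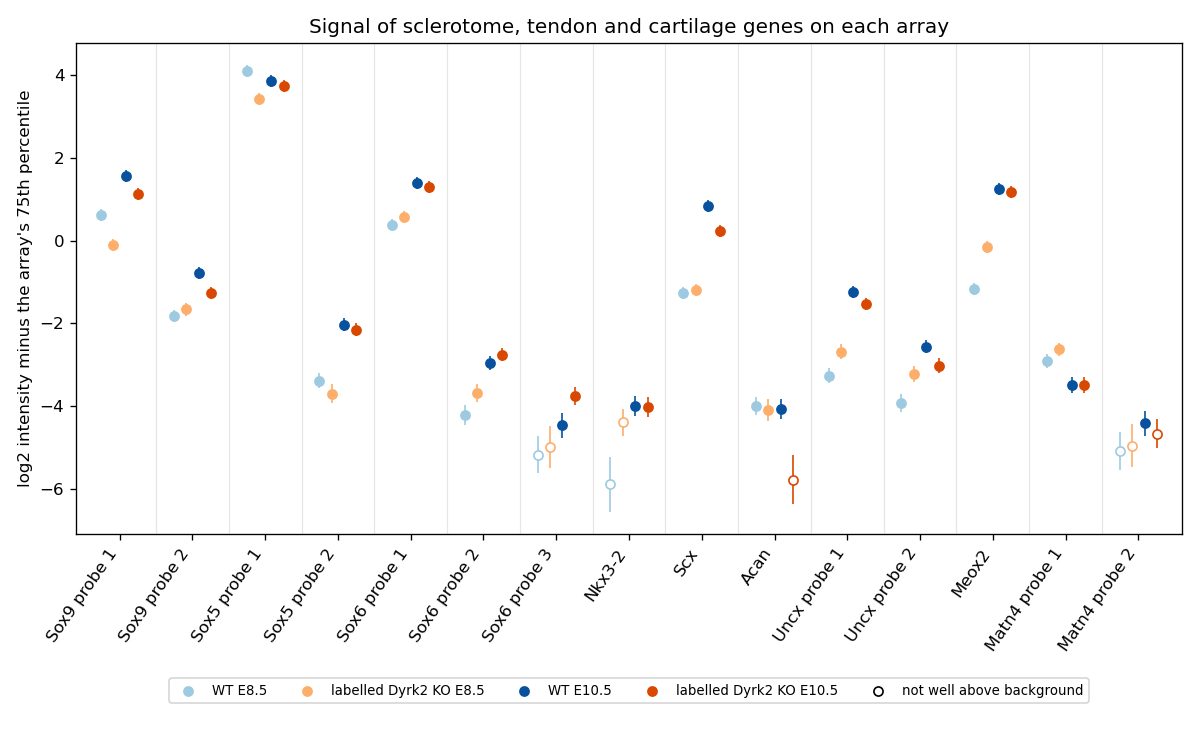
Log2 intensity minus the array's 75th percentile (y axis) of each probe that was well above background on at least 1 array (x axis), for the 4 arrays, with bars for the scanner software's error and open circles where the probe was not well above background. *Meox2* runs from −1.18 on the WT E8.5 array to 1.25 on the WT E10.5 array, and *Acan* has an open circle at −5.77 on the labelled knockout E10.5 array.

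*Sox9* encodes the main driver of chondrogenesis and is also active in neural crest, neural tube, heart cushion and gonad. Its brightest probe (chromosome 11, 112647560 to 112647619, plus strand) had values of 0.60, −0.11, 1.55 and 1.13. The labelled knockout array was the lower of the pair at both stages. The other *Sox9* probe (chromosome 11, 112646642 to 112646701, plus strand) lies upstream of the brightest on the same strand and had values of −1.82, −1.66, −0.78 and −1.27. There the E8.5 arrays were nearly level and the labelled knockout array was the lower at E10.5.

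At E10.5 both *Sox9* probes were lower on the labelled knockout array, 1.34-fold at the brightest and 1.41-fold at the other (log2 ratios −0.42 and −0.50, errors 0.20 and 0.21). They stayed negative under the spike-in scaling (−0.26 and −0.33) and without scaling (−0.56 and −0.63). At E8.5 the probes differed: the brightest had a log2 ratio of −0.72 (error 0.20) and the other of 0.16 (error 0.21). Under the spike-in scaling these became −1.27 and −0.39, and without scaling −0.97 and −0.10, so that the direction of the other probe at E8.5 rested on the scaling. Across the stages the brightest *Sox9* probe was 1.93-fold higher at E10.5 in WT and 2.37-fold on the labelled knockout arrays, and the other 2.06-fold and 1.31-fold.

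*Sox5* and *Sox6* encode partners of Sox9 that bind with it at enhancers of cartilage matrix genes. The 6 *Sox5* probes fell into 3 kinds. The brightest had values of 4.08, 3.42, 3.85 and 3.72, so that the labelled knockout E8.5 array was the lowest. The next had values of −3.39, −3.70, −2.03 and −2.15, so that both E8.5 arrays lay below both E10.5 arrays. The other 4 *Sox5* probes were not well above background on any array. The probes thus gave different orders of the arrays for the same gene.

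The sequences of these *Sox5* probes are shown because they differ in kind, beside those of *Sox9* for comparison. The brightest *Sox5* probe consists of A and G only and holds GGA 16 times in its 60 bases, and the annotation places it on 27 bases (chromosome 6 of mm9, 143776945 to 143776971, minus strand). The next *Sox5* probe has mixed bases (chromosome 6, 143777579 to 143777638, minus strand). The first 30 bases of each probe are given 5′ to 3′ as the array annotation holds them, with GGA in capitals.
Sox5 brightest probe: GGAGGAGGAGGAagaGGAGGAGGAGGAaga
Sox5 next probe: gtttgcaaGGAagaaatacgaaagctactt
Sox9 brightest probe: ttggggggtgagctttgattaattccccag
Sox9 other probe: tcctactacagtcacgcagccggccagggc

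The array holds 15 probes made of A and G only, the brightest *Sox5* probe among them, and 14 were well above background on all 4 arrays. At E8.5 these 14 probes had a median log2 ratio of −0.59 between the labelled knockout and WT arrays, and 8 of them were 1.5-fold or more lower and 0 higher. The brightest *Sox5* probe had a log2 ratio of −0.66 there (1.58-fold lower, error 0.20). At E10.5 the median of the 14 was −0.06 and that *Sox5* probe had a log2 ratio of −0.12, or 0.04 under the spike-in scaling. From E8.5 to E10.5 the median was −0.22 in WT and 0.25 on the labelled knockout arrays. The log2 ratio of the *Sox5* probe was −0.24 in WT, which turned positive under quantile normalization. On the labelled knockout arrays it was 0.30, and past 1.5-fold under the spike-in scaling (0.94) and without scaling (0.60). The brightest *Sox5* probe thus lay within 0.1 of the median of probes of its base composition in each comparison, while the other 14 such probes are not annotated to *Sox5*. This set of probes was looked at after the *Sox5* values were seen. Whether it measured *Sox5* transcript was not tested.

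At the *Sox5* probe of mixed bases, the labelled knockout array was 1.24-fold lower at E8.5 (log2 ratio −0.31, error 0.29). The log2 ratio there was 0.02 under normexp, −0.57 without scaling and −0.86, past 1.5-fold, under the spike-in scaling. At E10.5 the labelled knockout array was 1.09-fold lower, within the error of 0.22, with a log2 ratio of 0.04 under the spike-in scaling. From E8.5 to E10.5 it was 2.56-fold higher in WT and 2.93-fold on the labelled knockout arrays, or by log2 ratios of 0.63 and 0.58 under normexp, the latter short of 1.5-fold. Under the main scaling the genotype ratios of this *Sox5* probe thus lay near its error, while the stage ratios lay far beyond it. The size of its E8.5 genotype ratio rested on the scaling and the background correction.

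The brightest of the 4 *Sox6* probes (chromosome 7, 122614402 to 122614461, minus strand) had values of 0.37, 0.58, 1.40 and 1.30. The next *Sox6* probe (122615418 to 122615477) had values of −4.21, −3.68, −2.95 and −2.76. At both probes both E10.5 arrays lay above both E8.5 arrays. The dimmest measured *Sox6* probe was well above background on the E10.5 arrays alone, with values of −4.45 in WT and −3.76 on the labelled knockout array, and the remaining *Sox6* probe on no array. At E8.5 *Sox6* was 1.15-fold higher at the brightest and 1.44-fold at the next probe on the labelled knockout array, with log2 ratios of −0.34 and −0.02 under the spike-in scaling. At E10.5 the brightest *Sox6* probe was 1.07-fold lower (log2 ratio 0.06 under the spike-in scaling), the next 1.14-fold higher and the dimmest 1.62-fold higher with an error of 0.37 on the log2 scale, short of 1.5-fold without scaling (log2 ratio 0.56) and under normexp (0.25). The genotype direction of *Sox6* thus depended on the probe and the scaling. At E10.5 the brightest *Sox6* probe was 2.03-fold higher than at E8.5 in WT and 1.65-fold on the labelled knockout arrays, the next 2.39-fold and 1.89-fold, and the dimmest at least 1.29-fold and at least 1.7-fold. Under normexp the stage calls of the brightest *Sox6* probe held, while the next (log2 ratios 0.37 and 0.24) and the dimmest (0.08 and 0.09) fell short of 1.5-fold.

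*Runx2*, the master factor of osteoblasts, was not measurable at these stages. Its 3 probes had values between −7.14 and −6.29 over the 4 arrays, and none was well above background. No ratio was computed for *Runx2*.

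*Acan* encodes aggrecan, the large proteoglycan of cartilage. Its only probe (chromosome 7, 86259230 to 86259289, plus strand) had values of −3.99, −4.09, −4.07 and −5.77. The first 3 arrays were level, while on the labelled knockout E10.5 array *Acan* was not well above background. At E10.5 it was at least 1.63-fold lower on the labelled knockout array. Under normexp this difference did not reach 1.5-fold. At E8.5 *Acan* was 1.08-fold lower, within its error of 0.34, with a log2 ratio of 0.12 under normexp and of −0.66, past 1.5-fold, under the spike-in scaling. From E8.5 to E10.5 it was 1.06-fold lower in WT, which became a positive log2 ratio of 0.10 without scaling, and at least 1.6-fold lower on the labelled knockout arrays, a call lost under normexp. The *Acan* values lay near the background on all arrays.

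*Matn4* encodes matrilin 4, an extracellular matrix protein of cartilage and other connective tissue. The brightest of its 2 probes (chromosome 2, 164215177 to 164215236, minus strand) had values of −2.90, −2.63, −3.50 and −3.49. *Matn4* was thus lower on both E10.5 arrays than on both E8.5 arrays at this probe. At E8.5 it was 1.21-fold higher on the labelled knockout array, with a log2 ratio of −0.27 under the spike-in scaling, and at E10.5 it was 1.01-fold higher, with a log2 ratio of −0.12 without scaling. From E8.5 to E10.5 it was 1.51-fold lower in WT, short of 1.5-fold without scaling (log2 ratio −0.41) and under normexp (−0.36). On the labelled knockout arrays it was 1.82-fold lower, but short of 1.5-fold under the spike-in scaling (log2 ratio −0.22), without scaling (−0.55), under normexp (−0.57) and as a mean over its probes (−0.28). The other *Matn4* probe was well above background on the WT E10.5 array alone, at least 1.33-fold above the WT E8.5 array and at least 1.19-fold above the labelled knockout E10.5 array. The 2 *Matn4* probes thus differed in direction between the stages in WT.

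**Figure D2:**
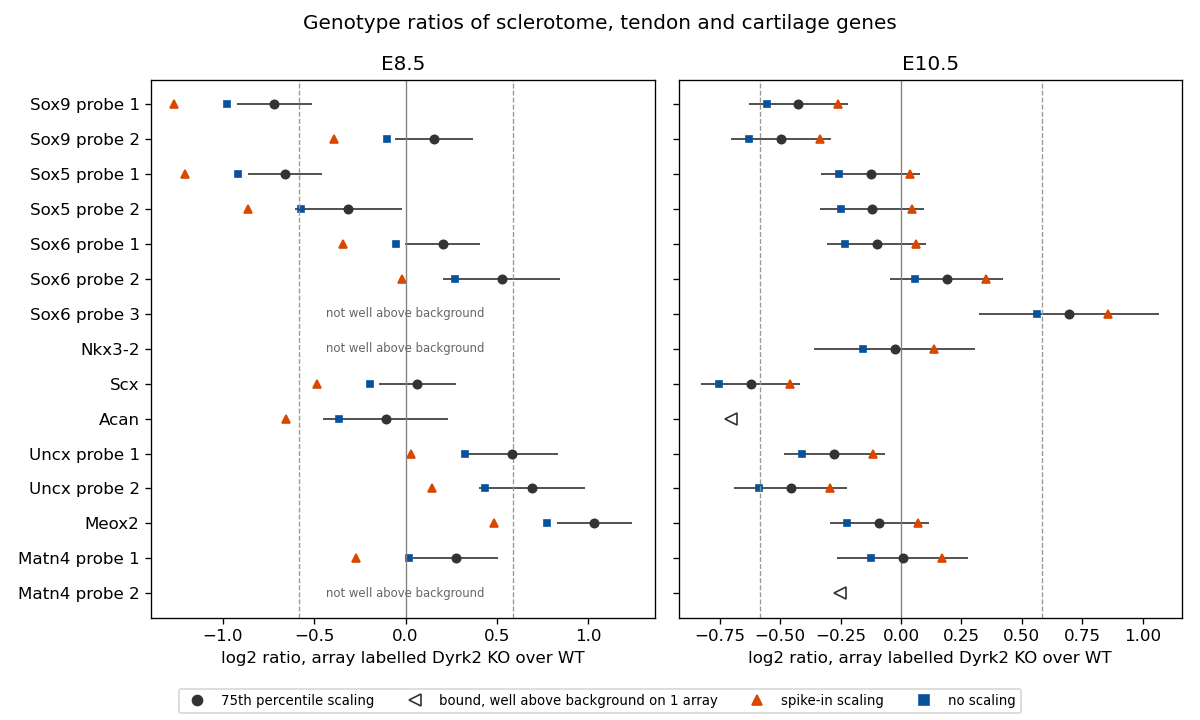
Log2 ratio of the array labelled *Dyrk2* knockout over WT at each stage (x axes, which differ in range) for each probe (y axis), with bars for the scanner software's error around the 75th percentile scaling, triangles for the spike-in scaling, squares for no scaling and open arrowheads at bounds. At E8.5 *Meox2* lies at 1.03 and the probes of *Sox9* at −0.72 and 0.16, and at E10.5 *Scx* lies at −0.62 (dashed lines mark 1.5-fold).

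Taken as a list at E8.5, 8 of the 10 genes were measured, 1 was 1.5-fold or more higher on the labelled knockout array (*Meox2*) and 2 were lower (*Sox9* and *Sox5*). Over all 20709 genes measured, 5.14% were higher and 6.5% lower, so that the counts exceed those of as many average genes by fewer than 2 genes in each direction. Of the 8 genes 5 had a positive and 3 a negative log2 ratio, with a median of 0.13, against −0.02 over all genes. The spike-in scaling shifted the median of all genes at E8.5 by −0.55 and the absence of scaling by −0.26, and the list's median became −0.41 and −0.12. Under the spike-in scaling 0 of the genes were higher and 3 lower (*Sox9*, *Sox5* and *Acan*), where 289 of all 20709 genes were higher and 9851 lower. With a gene's mean over its probes 2 were higher (*Meox2* and *Uncx*) and 0 lower, a setting for which no share over all genes is given. Under the main scaling the calls went in both directions. Their shares of the 8 genes were above those over all genes, but by fewer than 2 genes each way. The direction of the list rested on the scaling, and the calls also on the choice of probe.

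At E10.5, 9 of the 10 genes were measured, 0 were 1.5-fold or more higher on the labelled knockout array and 2 were lower (*Acan* and *Scx*). Over all 21209 genes, 3.5% were higher and 4.22% lower, so that these counts too lie within 2 genes of the background. Of the 9 genes 8 had a negative log2 ratio, with a median of −0.12 against a median near 0 over all genes. The spike-in scaling shifted all genes at E10.5 by 0.16 and the absence of scaling by −0.13. With it the list's median became 0.037, with 5 of 9 genes positive, and without scaling it was −0.26 with 0 positive. *Scx*, *Sox9* and *Uncx* had negative log2 ratios at each of their probes under every scaling.

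Between the stages, 9 of the 10 genes were measured in WT, and 6 were 1.5-fold or more higher at E10.5 (*Meox2*, *Scx*, *Uncx*, *Nkx3-2*, *Sox6* and *Sox9*) and 1 lower (*Matn4*). Over all 21643 genes, 18.8% were higher and 17.5% lower. The higher genes were thus a larger share of the list than of the array, and the lower gene was near the background share. The median log2 ratio was 1.02, or 0.95 with genes above background on 1 array at their bound, against −0.08 over all genes. On the labelled knockout arrays 5 of 9 genes were higher (*Scx*, *Meox2*, *Sox9*, *Uncx* and *Sox6*) and 2 lower (*Acan* and *Matn4*), where 17.6% of 21266 genes were higher and 13.9% lower. Their median was 0.72, against −0.05 over all genes. The spike-in scaling shifted all genes by −0.07 in WT and by 0.64 on the labelled knockout arrays, and the absence of scaling by 0.18 and 0.31. Under the spike-in scaling 7 of 9 genes were higher on the labelled knockout arrays and 1 lower, where 10646 of all 21266 genes were higher and 981 lower, so the larger count went with the whole array.

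The stage comparisons use the same 4 arrays as the genotype comparisons, so their ratios are not independent of each other. *Meox2*, *Uncx* and *Scx* each had a larger stage ratio in WT than on the labelled knockout arrays at every probe, and these pairs of values are the same arrays read the other way. Under the spike-in scaling *Scx* did not keep this order, with log2 ratios of 2.04 in WT and 2.06 on the labelled knockout arrays.

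A limma model with genotype and stage over all 4 arrays, which has 1 residual degree of freedom, was fitted to 32289 probes. Benjamini-Hochberg adjustment was over all of them. As each group has 1 array, the error in this fit comes from how far the knockout to WT ratios at E8.5 depart from those at E10.5. Its p-values, for stage and for genotype, therefore do not measure the spread between embryos of a group. For the stage, 15.7% of the probes were called higher and 19.6% lower at E10.5 at an adjusted p under 0.05. Of the 9 genes tested, 5 rose, each in 2 of 2 genotypes. These were *Scx* (log2 difference 1.77, adjusted p = 0.000113), *Meox2* (1.87, adjusted p = 0.000324), *Sox9* (1.096, adjusted p = 0.000385), *Uncx* (1.58, adjusted p = 0.000976) and *Sox6* (0.87, adjusted p = 0.00142). *Matn4* fell in both genotypes (log2 difference −0.73, adjusted p = 0.0456). The share of genes that rose was above that of all probes, and the share that fell was below it. Under the spike-in scaling 3 were called (*Meox2*, *Scx* and *Uncx*), without scaling *Nkx3-2* was called and *Matn4* was not, and without a filter on dim probes 5 were called, *Matn4* not among them. Over all probes the stage calls were 11397 of 32289 in the main fit, 2633 under the spike-in scaling, 11768 without scaling, and 13678 of 56604 without a filter.

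*Nkx3-2* (log2 difference 1.13, adjusted p = 0.091), *Acan* (−0.88, adjusted p = 0.175) and *Sox5* at its brightest probe (0.03, adjusted p = 0.891) did not pass the test for the stage. The *Sox5* probe of mixed bases did (1.45, adjusted p = 0.00117), as did the other *Sox9* probe (0.72, adjusted p = 0.0187) and the next *Sox6* probe (1.09, adjusted p = 0.0126). The other *Uncx* probe (0.78, adjusted p = 0.0797) and the dimmest measured *Sox6* probe (0.97, adjusted p = 0.0965) did not.

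For the genotype over both stages, limma called 0 of the 9 genes and 0.0186% of all probes, and 2 of the 9 genes had an unadjusted p under 0.05, as did 1592 of all 32289 probes. These were *Sox9* at its brightest probe (log2 difference −0.57, unadjusted p = 0.00254, adjusted p = 0.438) and *Sox5* at its A and G probe (−0.39, unadjusted p = 0.0243, adjusted p = 0.933), both lower at 2 of 2 stages. The other *Sox9* probe had a log2 difference of −0.17 (adjusted p = 1). Without scaling between arrays limma called *Sox9* (adjusted p = 0.00144) and *Sox5* (adjusted p = 0.0385), at the same probes, and without a filter on dim probes it called *Sox9* alone (adjusted p = 0.00251). The calls over all probes grew as well, from 6 to 729 of 32289 without scaling and to 564 of 56604 without a filter. It called 0 of these genes under quantile normalization, the spike-in scaling, normexp, the deposited table, a filter on all 4 arrays or without the intensity trend. *Scx* had a log2 difference of −0.28 and *Meox2* of 0.47 over both stages, each with an adjusted p of 1.

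Lists of further genes of the same tissues place these values, and their counts at E8.5 and E10.5 are given with no test. The shifts given above apply to each gene, so that directions nearer to 0 than the shift turn with the scaling. Outside the red cell, yolk sac and sex chromosome lists, the genotype calls of these further genes that held under all 5 other settings of scaling and background were those of *Egr1*, *Thbs4*, *Fabp7*, *Foxa2* and *Hhip* at E8.5 and of *Ncan* and *T* at E10.5. Of 12 other genes of sclerotome and somite mesenchyme, all 12 were measured. At E8.5 10 were positive with a median log2 ratio of 0.16, and at E10.5 10 were negative with a median of −0.15, where the spike-in scaling gave 1 positive (−0.39) and 7 positive (0.01). *Pax1*, a sclerotome factor, was the only gene past 1.5-fold at its brightest probe, at 1.53-fold higher and then 1.57-fold lower. The former call was lost under all 5 other settings, and the other *Pax1* probe was lower at both stages (log2 ratios −0.49 and −0.41). *Pdgfra* had a dimmer probe with log2 ratios of −0.95 and −0.65, past 1.5-fold, and another with 0.43 at both stages. *Pax9* was 1.05-fold and 1.31-fold lower. *Meox1*, the relative of *Meox2*, was 1.28-fold and 1.06-fold higher, and *Tcf15*, a somite factor related to *Scx*, 1.35-fold higher and 1.11-fold lower. For the stage limma called 8 of the 12, 5 of them higher, among them *Zic1* (log2 difference 3.51, adjusted p = 1.02e-06) and *Pax1* (2.34, adjusted p = 0.000152).

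Of 12 other tendon genes 8 were measured at E8.5, where *Egr1* (2.21-fold) and *Fmod* (1.9-fold) were higher and *Thbs4* (1.59-fold) and *Dcn* (1.57-fold) lower on the labelled knockout array, with a median log2 ratio of 0.03. At E10.5 10 were measured, *Col14a1* was 1.57-fold higher and *Thbs2* at least 1.36-fold lower, and the median was −0.05, or 0.11 under the spike-in scaling. At E10.5, where *Scx* was lower, 4 of these genes were positive and 6 negative, with 8 positive under the spike-in scaling and 2 without scaling. *Mkx*, a tendon factor, was 1.08-fold higher and 1.03-fold lower, and *Tnmd* and *Kera*, markers of mature tendon, were not well above background on any array. For the stage limma called 6 of 9, 4 of them higher.

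Of 22 other cartilage genes 16 were measured at E8.5, with a median log2 ratio of 0.10 that became −0.44 under the spike-in scaling. Of 17 measured at E10.5, 13 were negative with a median of −0.12, and 10 were positive under the spike-in scaling. *Lect1* (chondromodulin) alone passed 1.5-fold at its brightest probe, higher at E8.5 (1.53-fold) and lower at E10.5 (2.32-fold). The former call was lost under all 5 other settings and the latter under normexp. A dimmer probe of *Hapln3* had log2 ratios of −0.74, past 1.5-fold, and −0.44. *Col2a1*, the cartilage collagen that Sox9 activates, had values of 2.32, 2.25, 3.15 and 2.94, and was 1.05-fold and 1.16-fold lower. *Col10a1*, *Snorc*, *Chad*, *Prg4* and *Matn1* were not well above background on any array. For the stage limma called 10 of 17, 7 of them higher, *Col2a1* among these (0.76, adjusted p = 0.0014).

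Of 14 bone genes, *Col1a1* was 1.68-fold and *Col1a2* 1.51-fold higher at E8.5 among 10 measured (median 0.25, or −0.30 under the spike-in scaling), and both calls were lost under that scaling and without scaling. At E10.5 *Col1a1* was 1.61-fold and *Dlx5* 1.5-fold higher and *Dlx6* 1.52-fold lower among 11 measured, with a median of 0.08, or −0.05 without scaling, where both higher calls were lost. *Sp7*, the osteoblast factor downstream of *Runx2*, was 1.19-fold lower and 1.02-fold higher at its brightest probe. Another *Sp7* probe was lower on the labelled knockout array at E8.5, but was not well above background on both arrays. *Ibsp*, *Bglap* and *Dmp1* were, like *Runx2*, not well above background. For the stage limma called 5 of 11, 3 of them higher.

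Of 15 relatives of the 10 genes, 7 of which also stand in another of these lists, 12 were measured at E8.5 (median 0.01, or −0.54 under the spike-in scaling) and 13 at E10.5 (median −0.15, or 0.01). *Sox10* was 1.64-fold higher and *Bcan* 1.52-fold lower at E8.5, and *Ncan* was 2.15-fold lower at E10.5. *Sox8*, the closest relative of *Sox9*, was well above background at E10.5 alone and 1.05-fold higher there. *Runx3* and *Matn1* were not well above background. For the stage limma called 7 of 13, 3 of them higher.

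Hedgehog signals from notochord and floor plate act upstream of *Sox9* and *Nkx3-2* in the sclerotome. At E8.5 7 of 12 genes of this list were negative with a median log2 ratio of −0.10, *Foxa2* was 2.08-fold and *Hhip* 1.86-fold lower, and the median was −0.65 under the spike-in scaling. At E10.5 8 of 11 were negative with a median of −0.32, *T* was 2.81-fold and *Hhip* 1.61-fold lower, and the median was −0.16 under the spike-in scaling. *Shh* was 1.1-fold and 1.31-fold lower and the target *Gli1* 1.31-fold and 1.16-fold. The receptor gene *Ptch1* was 1.23-fold and 1.31-fold lower at its brightest probe, while its other probes had E8.5 log2 ratios of 0.04 and −0.01, and E10.5 log2 ratios of −0.72 and 0.50. For the stage limma called 7 of 12, 1 of them higher.

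**Figure D3:**
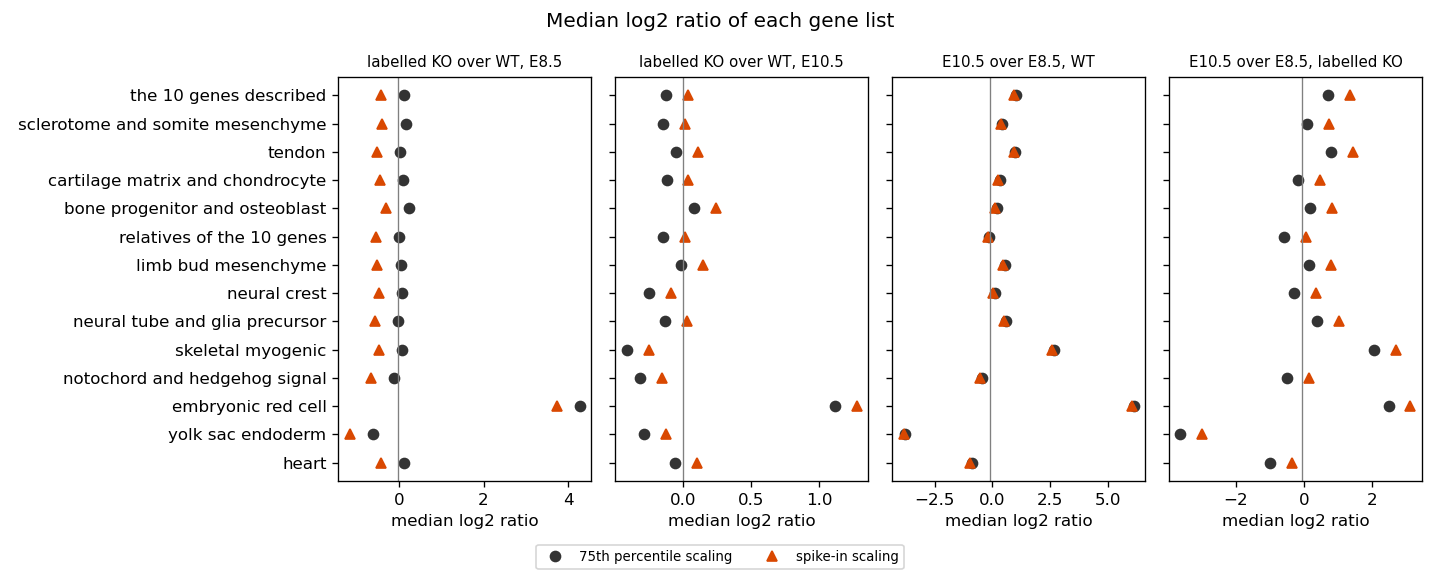
Median log2 ratio (x axes, which differ in range) of each list of genes (y axis) in the 4 comparisons, with circles for the 75th percentile scaling, triangles for the spike-in scaling and a grey line at the median of all genes. The 10 genes described lie at 0.13, −0.12, 1.02 and 0.72 from left to right, and the embryonic red cell list lies at 4.27 at E8.5.

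Markers of other cells that express some of the 10 genes were read in the same way, and their part in the values above was not tested. *Sox9* and *Sox5* are also active in neural crest and neural tube. All 8 neural crest genes were measured, with a sum of scaled linear intensities of 14.8, 15.8, 17.8 and 15.3 in the 4 arrays. The probe with most signal in a list is named as such and is not a level compared between genes. It was that of *Tfap2a* on average and differed between the arrays. At E8.5 *Sox10* alone passed 1.5-fold at its brightest probe, and the median was 0.07 (−0.48 under the spike-in scaling). Other probes of *Tfap2a* (log2 ratio 1.02) and *Tfap2b* (0.64) also passed it, while further *Tfap2a* probes had 0.06 and −0.24. At E10.5 all 8 were negative at their brightest probes with a median of −0.25, where 2 were positive under the spike-in scaling. Other probes went both ways there, with log2 ratios of 0.25 and −0.20 at probes of *Tfap2a* and 0.25 and −0.14 at those of *Ets1*. A further *Tfap2a* probe was higher on the labelled knockout array, but was not well above background on both arrays. All 8 neural tube genes were measured, with sums of 38.6, 39.3, 73.2 and 60.1, and the probe with most signal was that of *Sox3* at E8.5 and of *Nes* at E10.5. *Olig2* was 1.75-fold higher and *Fabp7* 1.62-fold lower at E8.5. At E10.5 7 of 8 were negative at their brightest probes with a median of −0.13 (0.03 under the spike-in scaling). Other probes of *Pax6* were positive there (log2 ratios 0.20, 0.48 and 0.69), and another of *Slc1a3* was negative (−0.46).

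*Meox2* and *Scx* are also active in limb mesenchyme. Of 12 limb genes, E8.5 had 11 measured and E10.5 all 12, with sums of 58.2, 59, 76.7 and 73.8. The probe with most signal was that of *Prrx2* in WT and of *Msx1* on the labelled knockout arrays. *Pitx1* was 1.66-fold higher at E8.5 and *Shox2* 1.55-fold lower at E10.5, with medians of 0.04 and −0.01 (−0.50 and 0.15 under the spike-in scaling). *Prrx1* was 4.75-fold higher at E10.5 than at E8.5 in WT and 3.56-fold on the labelled knockout arrays. Over the list 8 genes were positive and 4 negative in WT (median 0.53), and 9 and 3 on the labelled knockout arrays (median 0.14).

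Muscle precursors neighbour the *Scx* domain. Of 8 myogenic genes, E8.5 had 4 measured and E10.5 had 7, with sums of 4.65, 4.6, 8.65 and 7.35. The probe with most signal was that of *Pax3*, with *Myf5* not well above background on any array. At E8.5 *Lbx1* was 1.59-fold higher, a call lost under the spike-in scaling, no scaling and normexp, and the median was 0.08 (−0.47 under the spike-in scaling). At E10.5, where *Scx* was lower, all 7 were negative at their brightest probes, with a median of −0.41. Of these, 2 were positive under the spike-in scaling, 1 under quantile normalization and 1 under normexp. Other probes of *Pax3* and *Met* were positive there (log2 ratios 0.34 and 0.54). *Myod1* was 2.51-fold, *Myf6* 1.89-fold and *Lbx1* 1.59-fold lower. Under normexp all 3 of these calls were lost.

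Other parts of the embryo also differed between the arrays. All 9 red cell genes were 1.5-fold or more higher on the labelled knockout array at E8.5, with a median of 4.27. This median was 4.07 with genes above background on 1 array at their bound, and 2.58 under normexp. At E10.5 7 of 9 red cell genes were higher, with a median of 1.12. Their sums were 13.5, 264, 819 and 987, and the probe with most signal was that of *Hbb-bh1* at E8.5 and of *Hbb-y* at E10.5. Of 8 yolk sac endoderm genes 5 were lower at E8.5 (median −0.61) and 0 at E10.5 (median −0.29), with sums of 46.9, 31.6, 23.6 and 19.5 and most signal at the probe of *Rbp4* at E8.5 and of *Afp* at E10.5. None of 6 heart genes passed 1.5-fold between the genotypes at its brightest probe (medians 0.13 and −0.06). A dimmer *Nppa* probe had log2 ratios of 0.93 at E8.5 and −0.22 at E10.5. The heart sums were 210, 219, 115 and 117, with most signal at the probe of *Myh6*. *Xist* was well above background on the labelled knockout E10.5 array alone, and the brightest probes of 4 genes of the Y chromosome on the other 3 arrays alone. The *Meox2* and *Sox9* ratios at E8.5 thus stand beside a large red cell difference, and the *Scx* and *Acan* ratios at E10.5 beside a difference in sex chromosome genes.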

How the data were processed

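RNA of whole embryos was measured on 4 arrays, 1 per group. The authors deposited the scanner output (Feature Extraction 10.7.1.1 in the file headers, 9.5.1.1 in the submitters' processing notes), with a linear, background-subtracted processed intensity that was not scaled across arrays. A series table, also deposited, holds intensity values of equal distribution in the 4 arrays. Spots marked as outliers were dropped, the log2 intensity of the remaining spots was averaged per probe, and each array's 75th percentile was subtracted. The brightest probe stood for a gene, and a pair of arrays was compared at 1.5-fold where the probe was well above background on 1 or both. A bound used, for the dimmer array, the probe's own value or, if higher, the lowest value that counted as well above background there.

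limma 3.58.1 with an intensity trend was fitted to probes that were well above background on 2 or more arrays, with genotype and stage as terms. The other software was Python 3.11.15 with pandas 2.3.3 and numpy 2.4.6, and R 4.3.3 with the data.table package (version 1.17.8). The steps were tested on simulated data.

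Alternatives were quantile normalization, scaling by spike-in control probes, no scaling, normexp background correction with an offset of 50, the deposited table, filters on both arrays or on all 4, no filter, a gene's mean over its probes, a 2-fold threshold and limma without the trend. Replacing the A and G probe of *Sox5* by the probe of mixed bases was chosen after seeing the data. Named were all 10 genes with all probes, *Dyrk2*, the defining genes of each list and up to 5 genes per list and comparison with the largest ratio past 1.5-fold. The genes and the lists (sclerotome and somite mesenchyme, tendon, cartilage, bone, relatives of the 10 genes, hedgehog and notochord, limb, neural crest, neural tube, myogenic, red cell, yolk sac endoderm, heart and sex chromosome) were chosen with earlier results of these data known. RefSeq names (GRCm38.p6) were the same for the 19 of 23 probes that the reference table held, and positions were taken from the array annotation (mm9). The data of the study's qPCR and histology were not analysed here.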

Additional observations from a re-analysis of the deposited data

Results flagged for a closer look

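Of the genes in the lists, 3 were 1.5-fold or more apart between the genotypes in opposite directions at the stages, and none of them is among the 10 genes described. *Pax1* had a log2 ratio of 0.62 at E8.5 and −0.65 at E10.5, while its other probe had −0.49 and −0.41. *Lect1* had log2 ratios of 0.62 and −1.21, and *Lbx1* of 0.66 and −0.67. At E8.5 *Pax1* and *Lect1* fell short of 1.5-fold under quantile normalization, the spike-in scaling, no scaling, normexp and the deposited table, and *Lbx1* under the spike-in scaling, no scaling and normexp. At E10.5 *Pax1* fell short under the spike-in scaling, *Lect1* under normexp and *Lbx1* under both. With 1 array per group the difference between the stages was not tested.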

How the results depend on the processing

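At E8.5, 3 of the 10 genes passed 1.5-fold, and 1 did at a 2-fold threshold. The median log2 ratio of 0.13 became −0.41 under the spike-in scaling and −0.12 without scaling. At E10.5 2 passed, against 1 under the spike-in scaling, 1 with a filter on both arrays, 1 at a 2-fold threshold (*Acan*, whose bound is 1.63-fold) and 0 under normexp. Over all 21209 genes 743 were higher and 895 lower at E10.5, against 184 and 145 under normexp and 1238 and 550 under the spike-in scaling. The loss under normexp thus went with the whole array. No count over all genes is given at the 2-fold threshold, with the filter on both arrays or for means over probes. The median of −0.12 became 0.037 under the spike-in scaling and −0.26 without scaling. limma's count for the genotype was 0, against 2 without scaling and 1 without a filter, and its count for the stage was 6, against 3 under the spike-in scaling. The cause was not tested. The other alternatives left each of these counts within 1.5 times and each median within the spread between repeated spots, but with a gene's mean over its probes the 2 calls at E8.5 were both higher (*Meox2* and *Uncx*), and those of *Sox9* and *Sox5* were lost. No called ratio of the 10 genes changed sign under another scaling or background correction, but that of *Matn4* in WT between the stages became 0.04 as a mean over probes. With the *Sox5* probe of mixed bases, chosen after seeing the data, the counts were 2 at E8.5, 2 at E10.5, 8 between the stages in WT and 8 on the labelled knockout arrays. Of 40 alternative values of the genes' own ratios at E8.5 21 lay within the spread between spots, of 45 at E10.5 25, and of 45 between the stages 23 in WT and 18 on the labelled knockout arrays. Signal over background limits *Acan*, *Nkx3-2*, *Runx2* and the dimmer probes.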
